A study of Mus musculus with 20 samples.

Results

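Mutually exclusive exons are neighbouring exons of which a transcript carries 1 or the other. The pairs were built from splice junctions whose donor and acceptor are annotated as joined: an outer donor and an outer acceptor had to be joined through either of 2 exons of at most 500 bp, with no such junction inside an exon and none from 1 exon to the other. This gave 264 pairs in 211 genes, of 17235 splicing events built from the same 181355 junctions, the others being 8147 cassette exons, 4976 alternative 5′ and 3848 alternative 3′ splice site events. In all, 81 pairs shared an exon with another pair (218 groups of pairs), and such pairs are not independent. The first exon is the one transcribed first, and its share is the reads on its 2 junctions divided by the reads on all 4 junctions of the pair.

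Bulk bone marrow RNA came from 20 recipient mice in 4 groups of 5: U2AF1(WT) with vehicle, U2AF1(WT) with sudemycin D6, U2AF1(S34F) with vehicle and U2AF1(S34F) with sudemycin D6. Every mouse was a lethally irradiated young adult (C57BL/6 x 129S4Sv/Jae)F1 recipient of marrow pooled from several donors, which carried the rtTA activator and a doxycycline-inducible U2AF1 transgene. The recipients ate doxycycline chow (625 ppm) for 7 days and had an intrajugular catheter through which drug or vehicle was infused on the last 5 of those days. The marrow of the WT mice thus also carries an induced U2AF1 transgene, and host cells that survive irradiation remain in the marrow. Mice of a group share their donor pool, and vehicle and sudemycin mice of 1 genotype may share it too. Junction reads summed to between 34384214 and 64813149 per mouse. *Xist* had 39145 to 78640 reads in the WT mice and 1 to 8 in the S34F mice, and a set of Y-linked genes summed to 0 to 4 and 10270 to 15034, so genotype and this sex-linked difference cannot be told apart in any comparison between genotypes. P-values measure the spread between recipients.

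U2AF1 is the small subunit of the factor that binds the 3′ end of an intron, where it contacts the AG dinucleotide and the bases beside it. The S34F substitution, recurrent in myelodysplastic syndromes, lies in a zinc finger of U2AF1 and is known to change how well introns are used according to the base just before that AG, here called position -3. Sudemycin D6 is a small molecule that acts on SF3B1, the subunit of the U2 snRNP that lies at the branch point. In a mutually exclusive pair 2 acceptors compete for 1 upstream donor, and the exons often arose by duplication, so that either keeps the reading frame and replaces 1 stretch of the protein by a related one.

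The exons on which the results turn most are printed below, 5′ to 3′ on the transcribed strand of NCBI build 37 (mm9), with capitals at the positions where the aligned exons of a pair differ. *Rab6a* (ENSMUSG00000030704), a small GTPase of Golgi traffic, has its coding exons at chr7:107778180-107778285 and chr7:107778352-107778457 on the plus strand, 76 identical bases of 106 aligned.
Rab6a first exon: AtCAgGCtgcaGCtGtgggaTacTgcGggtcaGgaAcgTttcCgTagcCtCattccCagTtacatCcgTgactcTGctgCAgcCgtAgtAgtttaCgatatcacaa
Rab6a second exon: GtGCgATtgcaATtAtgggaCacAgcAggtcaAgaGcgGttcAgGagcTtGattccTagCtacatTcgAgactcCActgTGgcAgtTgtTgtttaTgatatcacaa
*Pkm2* (ENSMUSG00000032294), pyruvate kinase, the last enzyme of glycolysis, has at chr9:59522836-59523002 the exon of the M1 form, typical of muscle and brain, and at chr9:59523375-59523541 that of the M2 form, typical of proliferating cells, both on the plus strand (108 identical bases).
Pkm2 first exon: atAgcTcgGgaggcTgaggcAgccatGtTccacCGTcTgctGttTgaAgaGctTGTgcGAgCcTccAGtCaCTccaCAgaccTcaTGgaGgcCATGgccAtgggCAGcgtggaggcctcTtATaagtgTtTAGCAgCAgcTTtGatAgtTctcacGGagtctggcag
Pkm2 second exon: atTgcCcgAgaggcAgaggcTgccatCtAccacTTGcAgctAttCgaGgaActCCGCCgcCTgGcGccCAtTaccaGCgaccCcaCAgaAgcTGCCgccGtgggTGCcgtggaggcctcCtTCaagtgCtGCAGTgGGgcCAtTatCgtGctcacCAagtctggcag
*P4ha1* (ENSMUSG00000019916), the catalytic subunit of collagen prolyl 4-hydroxylase, has its coding exons at chr10:58817088-58817158 and chr10:58818098-58818168 on the plus strand.
P4ha1 first exon: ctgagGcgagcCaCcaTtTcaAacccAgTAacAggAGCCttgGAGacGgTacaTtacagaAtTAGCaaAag
P4ha1 second exon: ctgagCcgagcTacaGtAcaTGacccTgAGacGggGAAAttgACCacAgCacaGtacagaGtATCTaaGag
*Ogdh* (ENSMUSG00000020456), the E1 subunit of 2-oxoglutarate dehydrogenase in the citric acid cycle, has coding exons of 91 and 103 bp at chr11:6216768-6216858 and chr11:6216981-6217083 on the plus strand.
Ogdh first exon: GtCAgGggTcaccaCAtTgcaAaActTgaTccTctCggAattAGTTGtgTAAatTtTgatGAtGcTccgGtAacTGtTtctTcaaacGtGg
Ogdh second exon: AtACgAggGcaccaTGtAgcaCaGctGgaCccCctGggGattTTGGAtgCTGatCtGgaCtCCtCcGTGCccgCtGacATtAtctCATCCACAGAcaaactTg
*U2af1* (ENSMUSG00000061613) itself holds a pair, at chr17:31789447-31789513 and chr17:31788591-31788657 on the minus strand.
U2af1 first exon: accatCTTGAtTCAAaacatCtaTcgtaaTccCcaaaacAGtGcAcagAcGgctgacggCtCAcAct
U2af1 second exon: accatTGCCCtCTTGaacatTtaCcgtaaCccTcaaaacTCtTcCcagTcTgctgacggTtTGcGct

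The acceptors of a pair can differ in the base at position -3; those of *U2af1* both have C there. The following stretches are the last 20 bases of the intron and the first 3 bases of the exon, with position -3 in capitals, for 5 pairs that have C before the first exon and T before the second.
Rab6a first acceptor: tactttttcccgtcccaCagatc
Rab6a second acceptor: ttgactgattttgttgtTaggtg
Pkm2 first acceptor: tcctaccctaaaccttaCagata
Pkm2 second acceptor: gacggatgttgctccccTagatt
P4ha1 first acceptor: tttgacggttggcttcaCagctg
P4ha1 second acceptor: tctcttttttctttttgTagctg
Mctp1 first acceptor: atactttatttcatttaCagaca
Mctp1 second acceptor: aaatatttgtttgttttTaggaa
Tpm1 first acceptor: tttcctgtgtccactaaCagcca
Tpm1 second acceptor: cttctgatcgaacacatTagcaa
Over all 264 pairs, T stood at position -3 of 22.3% of the first exons (59) and 33.3% of the second exons (88), against 29.7% of the cassette exons. In 64 pairs T preceded the second exon alone, in 35 the first alone, in 24 both and in 141 neither.

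The label of mutually exclusive exons held for some of these pairs only. Equal length, the usual sign of a duplicated exon, was found in 39 pairs, and in 133 pairs (50.4%) the lengths differed by a multiple of 3 or not at all. Both exons were coding in 93 pairs, 81 of which kept the frame in this sense, against 52 of the other 171. Identity between the aligned exons had a median of 62.5% in pairs of equal length and 39.9% in the others. Junctions that leave out both exons were read in most pairs: the estimated percentage of molecules that skip both had a median of 0.0867% in the pairs of equal length, 32 of 39 of them under 1%, and of 55.4% in the 225 others, 57 of which were under 1%. The estimate divides the skipping reads by those reads plus the pair's reads divided by 2, since a molecule with an exon can be read on 2 junctions. The percentage that joins both exons was estimated in the same way from the joining reads. Each estimate leaves the other kind of molecule out of its total, so the 2 percentages are not parts of 1 whole. A molecule with both exons also adds to the pair's reads. A junction that joins the exons to each other, of annotated ends but not an annotated intron, was read in 119 pairs. In 77 pairs reads joining both exons and reads skipping both were each under 1% of molecules, while 116 pairs skipped both exons in over 50% of molecules. The exons abut with no intron between them in 4 pairs, *Csf3r* among them, and lie less than 50 bp apart in 28 pairs, these included. Exons so close leave little or no room for an intron, so the absence of joining reads there does not show that the exons exclude each other. How many of the 77 pairs are of this kind was not counted. In 9 pairs the exons were over 90% identical, so that reads could be placed on either, and 0 of those were called below.

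**Figure D1:**
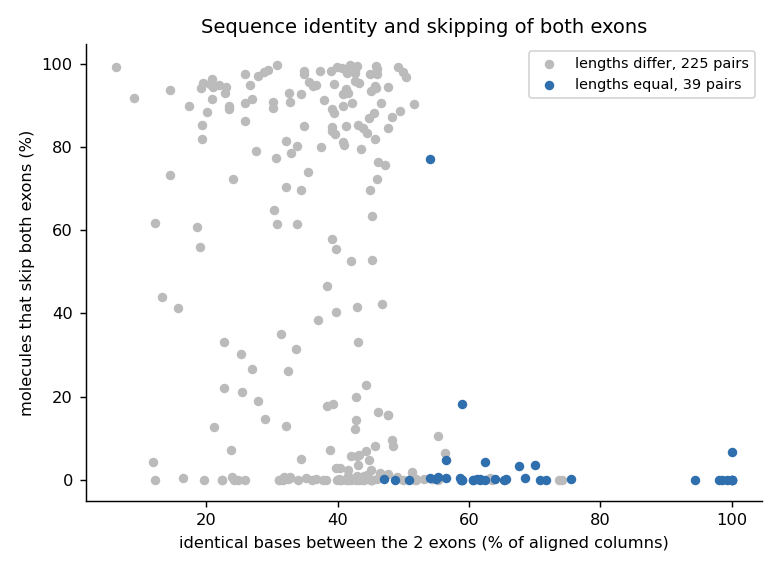
Each point is 1 of the 264 pairs. The x axis gives the identical bases as a percentage of the aligned columns of the 2 exons, the y axis the estimated percentage of molecules that skip both exons. Of the 39 pairs of equal length (blue), 32 lie under 1% on the y axis, and the 225 others (grey) spread from 0 to nearly 100.

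A second property of the pairs sets how a share is read. An exon used as a whole has similar numbers of reads on the junction entering it and the junction leaving it. The 2 junctions of each exon were within 5-fold of each other in 147 pairs, called balanced here, and not in 117 pairs, where the share in effect compares an upstream with a downstream junction.

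Among the 223 pairs read on average 10 times or more in a mouse, the share of the first exon in WT vehicle mice had a median of 0.491. It was under 0.1 in 46 pairs, over 0.9 in 39 and between these in 138. Depth ran from 0.55 to 16288 reads per mouse and pair with a median of 97.6, so that 34 pairs were tested in no comparison. The genes known for mutually exclusive exons illustrate the range. Of 18 such genes with 19 pairs, *Pkm2*, *Slc25a3* (a mitochondrial phosphate carrier), *Mapk8* and *Mapk9* (the stress kinases JNK1 and JNK2), *Fyn* (a Src family kinase) and *U2af1* used mostly the second exon, with mean shares of the first of at most 0.107 in WT vehicle mice. *Actn1* and *Actn4* (alpha-actinins, which crosslink actin), *Tpm2* and *Tpm3* (tropomyosins), *Mef2c* and *Mef2d* (MADS-box transcription factors), *Mapk14* (the p38 alpha kinase) and *H2afy* (the histone variant macroH2A1) used mostly the first, with mean shares of at least 0.881. The pairs of *Actn1*, *Actn4* and *Mef2d* are not balanced, so their shares do not measure the use of whole exons. *P4ha1*, *Tpm1*, *Dnm2* (dynamin 2, a GTPase of endocytosis) and *Mef2a* (another MADS-box factor) used both, with 0.500 ± 0.0615, 0.578 ± 0.0401, 0.597 ± 0.0358 and 0.691 ± 0.0194 in WT vehicle mice (mean ± SD, n = 5).

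**Figure D2:**
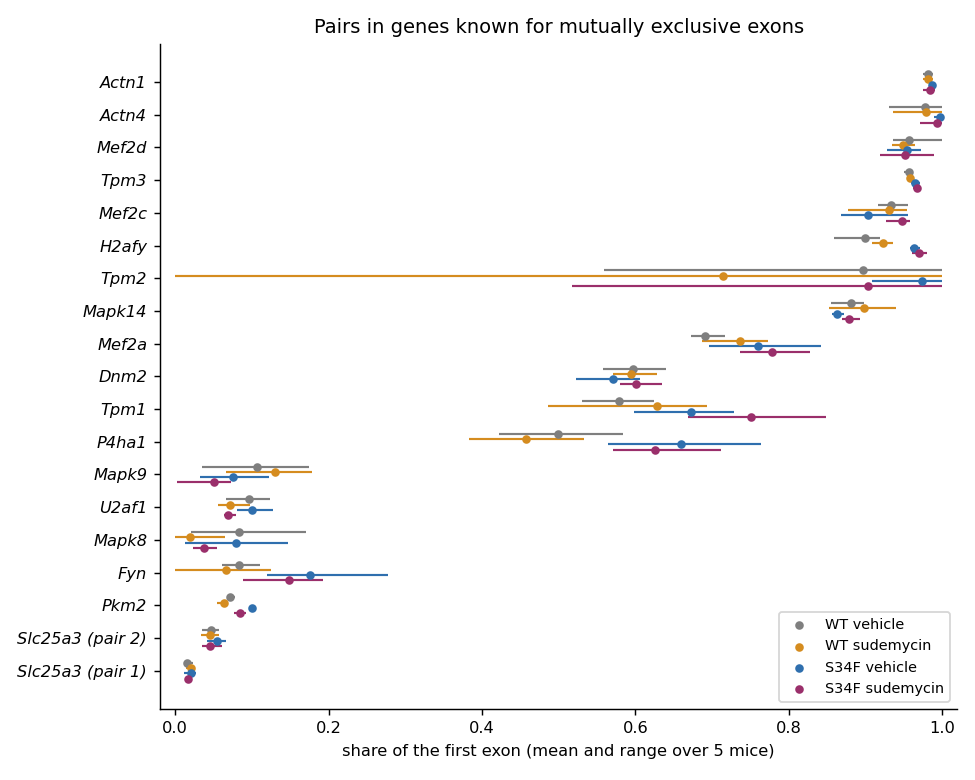
The 19 pairs in genes known for mutually exclusive exons, ordered by the mean share of the first exon (x axis, from 0 to 1) in WT vehicle mice. Points are means and lines the range over the 5 mice of a group. *Tpm2*, at a mean of 27.45 reads per mouse, has the widest ranges, from 0 to 1 in the WT sudemycin mice. The pairs of *Actn1*, *Actn4* and *Mef2d* are not balanced.

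Shares were tested with edgeR's quasi-likelihood test on the 2 exon counts of every mouse, in 1 fit over all splicing events with Benjamini-Hochberg adjustment (FDR). A pair was called at FDR<10% with a change of more than 1 percentage point in the mean share. In all, 35 pairs in 31 genes were called in at least 1 of 5 comparisons (18 in 1 comparison, 8 in 2, 5 in 3, 3 in 4 and 1 in 5), 20 of them balanced and 11 of equal length. The calls depend on how the spread between mice is modelled: with an estimated negative binomial dispersion in place of 0, the number of pairs called in the comparisons fell to between 0 and 4. Mean shares are given ± SD (n = 5), and a change is the difference of the mean shares. Many named pairs were chosen among called pairs whose 2 groups do not overlap, so the lack of overlap in them is no separate support. The groups were apart in 9 to 19 of the pairs tested in a comparison, and in 5 to 16 of those called. Of the 41 called changes of the 30 named pairs, 22 were also called from the junctions entering the exons alone and 22 from those leaving them alone, each with fewer reads.

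The first comparison asks what U2AF1(S34F) does to exon choice without the drug. Between the genotypes under vehicle, 13 of 223 pairs tested were called (5.83%), against 3.23% of the 14060 splicing events tested. The share moved toward the first exon in 11 and toward the second in 2. Of all events, 1.44% were called toward the first exon or the longer form and 1.79% the other way. Among cassette exons 4.63% were called. The median absolute change was 0.0362 over the pairs tested and 0.0203 over all events. Of the balanced pairs, 8 of 122 were called.

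*Pkm2*, read at a mean of 14564 reads per mouse, had first-exon shares of 0.0673, 0.0682, 0.0773, 0.0740 and 0.0702 in the WT vehicle mice and of 0.102, 0.0980, 0.0977, 0.104 and 0.0990 in the S34F vehicle mice. The groups do not overlap, and the M1 exon was a minor form in every mouse. The share rose by 0.0287 (log2 odds ratio 0.54 ± 0.08 SE, FDR 1.98e-06 by edgeR). *Mctp1*, which encodes a C2 domain protein of the endoplasmic reticulum, had shares of 0.422, 0.463, 0.475, 0.348 and 0.520 in WT vehicle mice and 0.597, 0.530, 0.547, 0.601 and 0.580 in S34F vehicle mice. All S34F mice lay above all WT mice, with a rise of 0.125 (log2 odds ratio 0.71 ± 0.13 SE, FDR 0.00123 by edgeR). Its exons are not strictly exclusive. The estimates above were 23.0% for molecules with both exons and 46.6% for molecules with neither, each with its own total. Its share thus includes reads from molecules that carry both exons. *H2afy* had mean shares of 0.899 ± 0.0239 and 0.964 ± 0.00500, with no overlap between groups and the smallest FDR of the pairs (4.89e-10 by edgeR).

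*P4ha1* had shares of 0.464, 0.423, 0.527, 0.584 and 0.500 in WT vehicle mice and 0.649, 0.644, 0.565, 0.672 and 0.764 in S34F vehicle mice. The lowest S34F mouse lay below the highest WT mouse, and the others were apart. The change was 0.159 (FDR 0.0341 by edgeR); the call was lost without either of WT vehicle mouse 2 and S34F vehicle mouse 11, with changes of 0.133 to 0.140. *Rab6a* rose from 0.325 ± 0.0269 to 0.397 ± 0.0371 (FDR 0.00764 by edgeR), and *Csf3r*, the receptor of granulocyte colony-stimulating factor, from 0.233 ± 0.0192 to 0.281 ± 0.0213 (FDR 0.00191 by edgeR), both with overlap of the groups. The *Csf3r* exons are noncoding in the annotation and abut. A single exon spanning both would give an entering read of the first and a leaving read of the second. The *Csf3r* share, here and below, therefore cannot be read as a choice between separate exons. The *Mthfsd* pair (114 bp each, 60.7% identical) rose from 0.0570 ± 0.0314 to 0.153 ± 0.0608 with its commoner outer acceptor (FDR 0.0625 by edgeR), and *Cept1* fell from 0.0655 ± 0.0195 to 0.0186 ± 0.0142 (FDR 0.0462 by edgeR). From entering junctions alone the calls of *P4ha1*, *Rab6a* and *Csf3r* were lost, with changes of 0.114, 0.0445 and 0.0378. *Mthfsd* and *Cept1* were named after their values were seen, as were the remaining 5 called pairs, *Rab1*, *Sun1*, *Tmem134*, *Ctsa* and *Arhgap4*, none of which is balanced. Pairs outside the naming rule were not examined with single mice left out. Of the known genes, *Pkm2*, *P4ha1* and *H2afy* were called, 3 of 19 pairs.

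**Figure D3:**
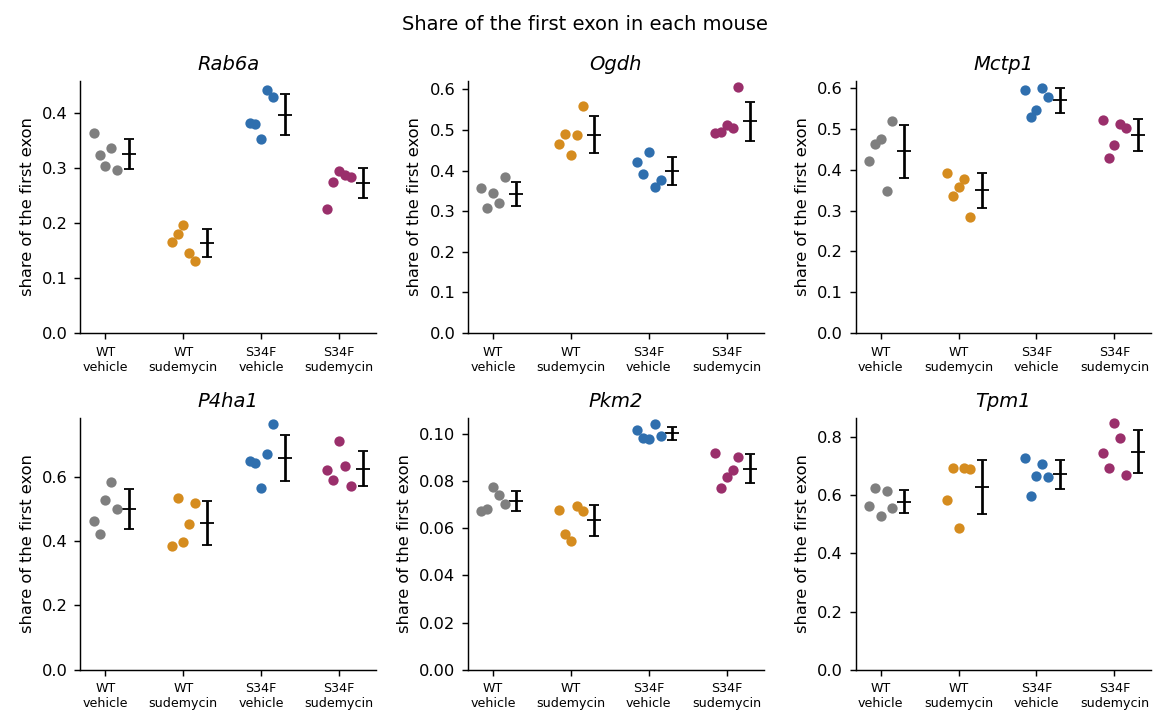
Share of the first exon (y axis, from 0) in each of the 20 mice (points) for 6 pairs, by group, with the mean and SD beside them in black. In *Rab6a* all WT sudemycin mice lie between 0.131 and 0.196, below every other mouse, and in *Pkm2* all S34F vehicle mice lie between 0.0977 and 0.104, above every other mouse.

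The genotypes were also compared under sudemycin D6, in other mice. Here 18 of 220 pairs were called (8.18%), against 3.15% of the 14174 events tested, 14 toward the first exon and 4 toward the second (all events: 1.31% and 1.84%). Of balanced pairs 11 of 122 were called, and of cassette exons 4.21%. All 18 had changed in the same direction under vehicle, and all 13 pairs called under vehicle had the same sign under sudemycin, while 142 of the 215 pairs tested in both (66.0%) did. Called in both were 8 pairs, 61.5% of the vehicle list and 44.4% of the sudemycin list. These 2 comparisons share no mice, but they do share the difference in sex-linked transcripts. Mice of 1 genotype may also share a donor pool across treatments. The agreement in sign is therefore not that of independent experiments.

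*P4ha1* had shares of 0.383, 0.533, 0.397, 0.455 and 0.519 in WT sudemycin mice and 0.621, 0.591, 0.712, 0.633 and 0.570 in S34F sudemycin mice, a rise of 0.168 with no overlap (FDR 0.0256 by edgeR). *Galnt7*, a glycosyltransferase that extends O-linked glycans, has exons of 183 bp each (70.8% identical), and its shares were 0.190, 0.350, 0.248, 0.247 and 0.199 against 0.519, 0.362, 0.392, 0.442 and 0.390. The groups were apart, with a rise of 0.174 (FDR 0.0315 by edgeR), and the call was lost without either of WT sudemycin mouse 6 and S34F sudemycin mouse 2, with changes of 0.150 to 0.160. *Mctp1* rose by 0.136, *Rab6a* by 0.109, *Csf3r* by 0.0520, *H2afy* by 0.0475 and *Pkm2* by 0.0218, each with no overlap and with FDR between 3.30e-08 and 0.000301 by edgeR. In this comparison the groups were apart in 18 of the 220 pairs tested, 13 of them called, and most pairs named here were chosen for being apart. *Stard4*, a sterol carrier, rose from 0.0809 ± 0.0303 to 0.171 ± 0.0204 (FDR 0.0182 by edgeR). The calls of *P4ha1* and *Csf3r* were lost from entering junctions alone (0.137 and 0.0420), that of *Stard4* from leaving junctions alone (0.0579) and that of *Galnt7* from either (0.199 and 0.145).

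*Safb2*, a scaffold attachment factor, also rose, by 0.138 (FDR 0.0108 by edgeR), but its pair is not balanced, with means of 5.5 and 282 reads on the junctions of its second exon. *Mapk9* fell from 0.131 ± 0.0478 to 0.0503 ± 0.0280 (FDR 0.0422 by edgeR) with overlapping groups; the call was lost without either of WT sudemycin mouse 8 and S34F sudemycin mouse 6, with changes of -0.0683 to -0.0684. *Tpm1*, an actin-binding tropomyosin, rose from 0.629 ± 0.0930 to 0.750 ± 0.0734 (FDR 0.0823 by edgeR), again with overlap; the call was lost without any 1 of WT sudemycin mice 6 and 9 and S34F sudemycin mice 2, 9 and 10, with changes of 0.0855 to 0.123. In the *Mthfsd* pair with the rarer outer acceptor, which is not balanced either, the rise was 0.118 (FDR 0.0747 by edgeR), on a mean of 137 reads per mouse; the call was lost without any 1 of WT sudemycin mice 6 and 8 and S34F sudemycin mice 6, 9, 10 and 12, with changes of 0.101 to 0.120. From the junctions of either side alone these 4 calls were lost, and the change in *Safb2* was 0.0247 from entering and 0.0280 from leaving junctions. The largest change of a called pair, 0.391 in *Cmpk1* (named after its value was seen), rests on a mean of 30.8 reads per mouse and on exons that 98.2% of molecules skip. The other 5 called pairs, *Rab1*, *H2afz*, *Usf2*, *Zdhhc3* and *Arhgap4*, are not balanced and were likewise named after their values were seen.

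The pairs were also sorted by the base at position -3, and the genotype changes are given for each class. Under vehicle, the share of the first exon was higher in S34F mice in 43 of the 55 tested pairs with T before the second exon alone, with a median change of 0.0566. It was higher in 63 of 118 pairs with T before neither exon (median 0.00272), in 17 of 32 with T before the first exon alone (median 0.000337) and in 10 of 18 with T before both (median 0.00668). The 7 called pairs of the class with T before the second exon alone all moved toward the first exon, and the class with T before the first alone had 1 called toward the first exon and 2 toward the second. The 3 called pairs with T before neither exon also all moved toward the first exon, so this direction was not particular to T before the second. With T before both exons 0 were called. Under sudemycin D6, 42 of 55 pairs with T before the second exon alone were higher in S34F mice (median 0.0304), 9 of 9 called ones toward the first exon. With T before the first exon alone, 12 of 32 were higher (median -0.0116), and 3 of 4 called ones moved toward the second. With T before both exons 5 of 16 were higher (median -0.0157), and with T before neither 67 of 117 (median 0.00457). Of the 5 called pairs with T before neither exon, 4 moved toward the first exon and 1 toward the second, and with T before both 0 were called. A lower share under sudemycin was thus not particular to T before the first exon alone.

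The same sorting within the balanced pairs gave 30 of 33 higher under vehicle (median 0.0647) and 27 of 34 under sudemycin (median 0.0368) for T before the second exon alone. In the balanced pairs with T before the first exon alone, 7 of 18 (median -0.00613) and 6 of 18 (median -0.0129) were higher. With T before both exons it was 8 of 14 (median 0.00668) and 3 of 14 (median -0.0186). With T before neither it was 27 of 57 (median -0.00194) and 32 of 56 (median 0.00448). Pairs that are not balanced differed less between these classes. With T before the second exon alone 13 of 22 were higher under vehicle (median 0.0140) and 15 of 21 under sudemycin (median 0.0199). With T before the first alone it was 10 of 14 (median 0.0139) and 6 of 14 (median -0.00786). Over all pairs, the medians of the 4 classes in the drug comparisons lay between -0.0103 and 0.00538 in WT mice and between -0.0138 and 0.00166 in S34F mice. The classes are described by counts and medians, without a test, and some of the pairs counted share an exon.

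**Figure D4:**
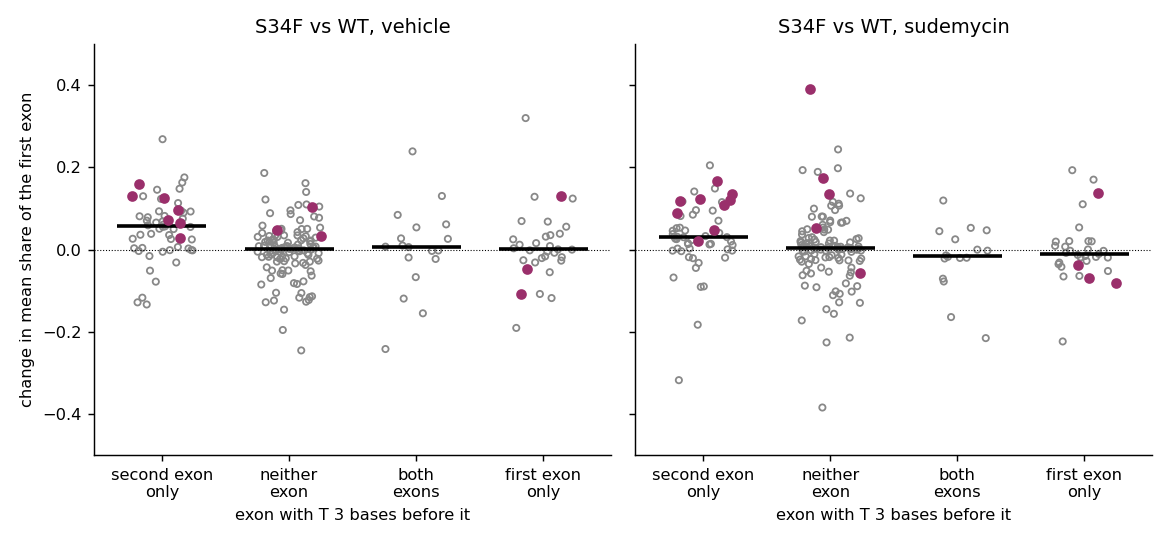
Change in the mean share of the first exon between S34F and WT mice (y axis), for pairs grouped by which exon has T at position -3 (x axis), under vehicle (left) and sudemycin (right). Open points are tested pairs, filled points called pairs and bars medians; the median is 0.0566 and 0.0304 for T before the second exon alone, and between -0.0157 and 0.00668 in the other classes.

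The next question is what sudemycin D6 does in each genotype. In WT mice 7 of 219 pairs were called (3.20%), against 0.936% of the 13892 events tested; 2 moved toward the first exon, both in *Ogdh* with the same exons, and 5 toward the second (all events: 0.382% and 0.554%), and 6 of 121 balanced pairs were called. In S34F mice 7 of 224 pairs were called (3.12%), against 1.07% of 14232 events, again 2 and 5 (all events: 0.429% and 0.639%), with 7 of 123 balanced. Cassette exons were called at 1.44% and 1.69%. Each comparison has its own mice. The 4 pairs called in both, 57.1% of each list, were *Rab6a*, *Csf3r*, *Mctp1* and *Ogdh*. The sign was the same in both genotypes for each pair called in either, and for 138 of the 216 pairs tested in both (63.9%).

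*Rab6a* had shares of 0.364, 0.324, 0.304, 0.337 and 0.296 in WT vehicle mice and 0.165, 0.179, 0.196, 0.146 and 0.131 in WT sudemycin mice. In S34F mice they were 0.382, 0.379, 0.353, 0.442 and 0.428 with vehicle and 0.225, 0.274, 0.294, 0.288 and 0.284 with sudemycin. Treated and control mice were apart in both genotypes. The share fell by 0.162 in WT mice (log2 odds ratio -1.27 ± 0.14 SE, FDR 3.15e-08 by edgeR) and by 0.124 in S34F mice (log2 odds ratio -0.83 ± 0.10 SE, FDR 4.41e-06 by edgeR), and the total reads of the gene did not pass the test in either (log2 fold change -0.05 and -0.12, FDR 0.924 and 0.439 by edgeR). It was the 1 pair called in all 5 comparisons: S34F mice had more of the first exon and treated mice less.

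*Ogdh* moved the other way, toward the first exon. Its shares were 0.356, 0.308, 0.345, 0.319 and 0.385 in WT vehicle mice and 0.466, 0.491, 0.440, 0.488 and 0.560 in WT sudemycin mice, apart, with a rise of 0.146 (FDR 0.000524 by edgeR). In S34F mice they were 0.422, 0.392, 0.445, 0.360 and 0.376 with vehicle and 0.492, 0.494, 0.512, 0.505 and 0.606 with sudemycin, also apart, with a rise of 0.123 (FDR 0.000433 by edgeR). The call of *Ogdh* in S34F mice was lost from entering junctions alone (0.0980). A second *Ogdh* pair has the same exons and another outer acceptor and is not independent of it. *Csf3r* fell by 0.0638 in WT mice (FDR 6.51e-05 by edgeR) and by 0.0604 in S34F mice (FDR 5.26e-05 by edgeR), from 0.233 ± 0.0192 to 0.169 ± 0.0160 and from 0.281 ± 0.0213 to 0.221 ± 0.0162, without overlap. *Mctp1* fell by 0.0957 in WT mice, with overlap (FDR 0.0687 by edgeR), and by 0.0847 in S34F mice without (FDR 0.00445 by edgeR). In WT mice the call was lost without any 1 of WT vehicle mice 3 and 5 and WT sudemycin mice 8 and 12, with changes of -0.0772 to -0.0925. From entering junctions alone the calls of *Csf3r* were lost in both genotypes (-0.0415 and -0.0373), and from leaving junctions alone those of *Mctp1* (-0.0483 and -0.0712).

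*Jak1*, a cytokine receptor kinase, has a noncoding pair that 90.6% of molecules skip. Its shares were 0.356, 0.389, 0.300, 0.441 and 0.303 in WT vehicle mice and 0.181, 0.185, 0, 0.217 and 0.184 in WT sudemycin mice, on a mean of 118 reads per mouse. The share fell by 0.205 (FDR 0.0735 by edgeR), and the call was lost without any 1 of WT vehicle mice 2 and 4 and WT sudemycin mouse 9, with changes of -0.166 to -0.197. It was also lost from entering (-0.290) and from leaving junctions alone (-0.133). *Tmem87a*, a Golgi membrane protein named after its values were seen, fell from 0.350 ± 0.0670 to 0.229 ± 0.0519 (FDR 0.0807 by edgeR).

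In S34F mice alone the test was passed by *Pkm2*, *U2af1* and *Ate1*. The *Pkm2* shares with sudemycin were 0.0919, 0.0770, 0.0815, 0.0845 and 0.0902, below all S34F vehicle mice; the share fell by 0.0151 (FDR 0.0101 by edgeR). In WT mice *Pkm2* changed by -0.00820 (FDR 0.463 by edgeR). *U2af1* had shares of 0.0819, 0.0801, 0.128, 0.104 and 0.104 with vehicle and 0.0639, 0.0653, 0.0689, 0.0795 and 0.0670 with sudemycin; the share fell by 0.0306 without overlap (FDR 0.0506 by edgeR), and the call was lost without any 1 of S34F vehicle mice 5 and 11 and S34F sudemycin mice 2 and 6, with changes of -0.0235 to -0.0297. Reads of the transgene, where counted here, were not separated from those of the endogenous gene. *Ate1*, which adds arginine to the N terminus of proteins, has coding exons of 129 bp each and rose from 0.527 ± 0.0305 to 0.610 ± 0.0309 (FDR 0.0606 by edgeR); the call was lost without any 1 of S34F vehicle mice 3, 7 and 11 and S34F sudemycin mice 6, 9 and 12, with changes of 0.0742 to 0.0836. In WT mice it changed by 0.110, from 0.544 ± 0.0294 to 0.653 ± 0.0486 (FDR 0.136 by edgeR). In S34F mice the calls of *U2af1* and *Ate1* were lost from the junctions of either side alone (-0.0418 and -0.0155 in *U2af1*, 0.0908 and 0.0693 in *Ate1*), and that of *Pkm2* from leaving junctions (-0.0137).

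**Figure D5:**
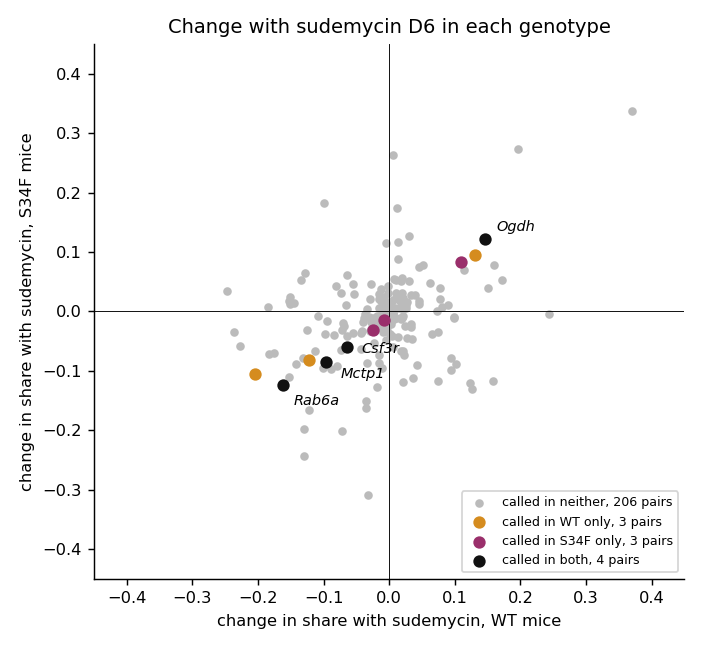
Change in the mean share of the first exon with sudemycin D6 in WT mice (x axis) and in S34F mice (y axis), for the 216 pairs tested in both. The 4 pairs called in both (black, named), the 3 called in WT mice alone (orange) and the 3 called in S34F mice alone (purple) lie in the lower left and upper right quadrants.

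Whether the drug acts differently in the genotypes was tested as the interaction over all 20 mice. By edgeR 0 of 223 pairs were called, as were 0 of the 14805 events (0%), and 13 pairs had an unadjusted p under 0.05. DESeq2 and limma also called 0 pairs, with 12 and 8 at that level. In *Rab6a* the fall was smaller in S34F than in WT mice by 0.0375, with FDR 1 by edgeR, and for *Pkm2*, *U2af1* and *Ate1* the differences were -0.00686, -0.00567 and -0.0270, each also with FDR 1 by edgeR. The changes called in 1 genotype alone are thus not shown to differ between genotypes.

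The S34F sudemycin mice were last set against the WT vehicle mice, which each also enter other comparisons. Here 21 of 225 pairs were called (9.33%), against 5.28% of the 14192 events, 13 toward the first exon and 8 toward the second (all events: 2.04% and 3.23%). The 21 pairs form 17 groups that share no exon, 9 toward the first exon and 8 toward the second, since *Ogdh*, *Mthfsd* and *Ctsa* each have more than 1 called pair. Of balanced pairs 12 of 124 were called, and of cassette exons 7.73%. *Tpm1* had shares of 0.564, 0.624, 0.530, 0.615 and 0.557 in WT vehicle mice and 0.744, 0.694, 0.848, 0.796 and 0.668 in S34F sudemycin mice, apart by a change of 0.172 (FDR 0.000326 by edgeR). *Ogdh* rose by 0.179 and *H2afy* by 0.0714 (FDR 2.75e-07 and 1.36e-07 by edgeR). *Mef2a* rose from 0.691 ± 0.0194 to 0.778 ± 0.0383 (FDR 0.0377 by edgeR); the call was lost without either of S34F sudemycin mice 6 and 10, with changes of 0.0737 to 0.0791. *Jak1* fell by 0.225 (FDR 0.00268 by edgeR). The call of *Mef2a* was lost from the junctions of either side alone (0.0711 and 0.101) and that of *Jak1* from leaving junctions (-0.104).

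In *Rab6a*, where genotype and drug moved the share in opposite directions, the share fell by 0.0521 in all (FDR 0.0585 by edgeR), and the call was lost without either of WT vehicle mouse 1 and S34F sudemycin mouse 2, with changes of -0.0401 to -0.0425. *Pkm2* rose by 0.0136 (FDR 0.0173 by edgeR); the call was lost without S34F sudemycin mouse 2, where the change was 0.0119. *P4ha1* rose by 0.126 (FDR 0.0708 by edgeR), and the call was lost without any 1 of WT vehicle mice 1, 2 and 5 and S34F sudemycin mice 2, 9 and 10, with changes of 0.104 to 0.127. *U2af1* fell by 0.0271 (FDR 0.0797 by edgeR), and the call was lost without any 1 of WT vehicle mice 2 and 5 and S34F sudemycin mice 2, 6, 9 and 12, with changes of -0.0202 to -0.0271. *Gm885* fell by 0.0376 and *Mthfsd* in its rarer form rose by 0.137 (FDR 0.00654 and 0.00913 by edgeR). From leaving junctions alone the calls of *Rab6a* (-0.0390) and *Pkm2* (0.0126) were lost, from entering junctions alone that of *U2af1* (-0.0322), and from either that of *P4ha1* (0.142 and 0.111). *Gm885* and *Mthfsd* turned direction when only the junctions leaving the exons were counted, to 0.0105 and -0.0498.

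The remaining 12 pairs in the known genes passed the test in no comparison. *Fyn* had mean shares of 0.0831 ± 0.0216 and 0.176 ± 0.0596 in vehicle mice (FDR 0.159 by edgeR), on 151 reads per mouse, and *Dnm2* had 0.597 ± 0.0358, 0.594 ± 0.0246, 0.571 ± 0.0342 and 0.601 ± 0.0215 in the 4 groups. *Mapk14* ranged between means of 0.862 and 0.898, *Actn1* between 0.982 and 0.987 and *Tpm3*, at 10896 reads per mouse, between 0.957 and 0.967. In *Mapk8*, at 170 reads per mouse, the SD reached 0.0618 around means of 0.0187 to 0.0835.

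Of 33 splicing regulators listed for their part in exon choice, 32 were matched to a gene and 28 were expressed enough to test. Between genotypes under vehicle 9 were higher in S34F mice (all genes: 19.7% higher, 19.8% lower) and 7 lower, and under sudemycin 8 higher and 4 lower (all genes: 17.2% and 19.6%). *U2af1* rose by 0.48 on the log2 scale under vehicle (FDR 0.000294 by edgeR), from a mean of 36.1 to 51.1 CPM (counts scaled by library size). Whether reads of the transgene, which the WT mice carry too, are counted there was not determined. *Sf1*, the branch point binding protein, fell by 0.67 and *Raver1*, a cofactor of the polypyrimidine tract binding proteins, by 0.79 (FDR 0.000222 and 0.000599 by edgeR). *Celf1* fell by 0.38, *U2af2*, the large U2AF subunit, by 0.35, and *Mbnl3* rose by 0.44 (FDR 0.00405, 0.00449 and 0.00210 by edgeR). *Ptbp1*, known to repress the M1 exon of pyruvate kinase, was at 184 and 180 CPM (FDR 0.689 by edgeR). Among the other listed regulators, *Rod1* (*Ptbp3*) and *Hnrnpa2b1* rose by 0.32 and 0.29 (FDR 0.0177 and 0.0211 by edgeR). *Hnrnpa1* changed by 0.21 (FDR 0.237 by edgeR). The part of these genes in the *Pkm2* share was not tested.

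In WT mice 0 of the 28 passed the test with sudemycin by edgeR or DESeq2, with 2 at an unadjusted p under 0.05 (all genes: 1.18% higher, 1.89% lower). In S34F mice 3 rose (all genes: 4.94% higher, 5.85% lower): *Ptbp1* by 0.23, *Raver1* by 0.43 and *Rbfox2* by 0.69 on the log2 scale (FDR 0.0599, 0.0501 and 0.0256 by edgeR), the last at 2.06 and 3.37 CPM. In S34F sudemycin against WT vehicle mice 14 were higher and 4 lower (all genes: 25.1% and 25.1%).

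A share in bulk marrow averages over its cells, and fewer cells of a type cannot be told apart from less RNA per cell. Neutrophil markers (7 of 7 matched) summed to 40210 to 45251 CPM in WT vehicle and 51666 to 84229 in S34F vehicle mice, and 3 of 7 passed the test as higher (all genes: 19.7%). Under sudemycin the sums were 37725 to 64197 in WT and 46635 to 70898 in S34F mice, with 1 of 7 higher. Monocyte and macrophage markers summed to 1273 to 1500 in WT sudemycin and 1578 to 2002 in S34F sudemycin mice, which do not overlap, and 2 of 6 were higher and 1 lower. In the same comparison 3 of 6 B cell, 3 of 5 T and NK cell and 2 of 5 megakaryocyte markers were lower. Of all genes 17.2% were higher and 19.6% lower between genotypes under sudemycin. The comparison with most calls was S34F sudemycin against WT vehicle mice. There 6 of 6 B cell, 4 of 5 T and NK cell and 3 of 5 megakaryocyte markers were lower (all genes: 25.1%). Higher were 3 of 7 neutrophil, 1 of 5 T and NK cell and 1 of 5 megakaryocyte markers (all genes: 25.1%). Of 6 monocyte and macrophage markers 2 were higher and 2 lower. T and NK cell markers summed to 52.9 to 61.3 in WT vehicle and 48.7 to 69.2 in S34F sudemycin mice, which overlap. B cell markers summed to 36.0 to 126 in WT vehicle and 32.3 to 49.6 in S34F sudemycin mice. With sudemycin 0 of 7 neutrophil markers passed the test by edgeR in either genotype. In S34F mice 3 of 5 T and NK cell and 2 of 5 megakaryocyte markers were lower (all genes: 5.85%), and in WT mice 1 of 6 B cell markers (all genes: 1.89%). Erythroid markers, summing to 183 to 770 over all mice, had 1 of 6 lower in each comparison of S34F sudemycin mice with WT mice, no more than the shares of all genes above. The part of cell composition in the changes of exon share was not tested.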

How the data were processed

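RNA of 20 mice was sequenced after ribosomal RNA depletion with strand-specific libraries (126-bp reads). Per the labels, the authors aligned reads with TopHat2 2.0.8 to mm9 (NCBI build 37). They deposited counts of reads for every splice junction and every gene in each mouse, not normalized, with 0 columns left unmapped to a mouse. A junction class column was used to choose annotated junctions, 181355 of 554616. Gene counts summed to between 41145892 and 62138138 per mouse, and junction counts scatter by at least counting error, so that a share from few reads is imprecise.

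The pairs were built from the junction table, and sequences were read from the NCBI build 37 genome. Exons of a pair were aligned globally with Biopython 1.88. The test of shares was a quasi-likelihood fit (edgeR 4.0.16, R 4.3.3) with 1 coefficient per mouse, isoform and isoform by group, negative binomial dispersion 0, over all 4 event types read on average 10 times or more in a mouse. Each comparison used its own 10 mice, the interaction all 20. Genes were tested by the same tool on counts per gene. The share test with dispersion 0 and the gene test were also run on simulated counts. These gave every event or gene the same spread between mice. They therefore cannot show whether the spread in the real data is modelled well. Named pairs were, per comparison, up to 8 called pairs with the largest change among those with groups apart, each junction read in at least 5 of 10 mice and at least 20 reads per mouse, plus every pair in listed genes known for such exons, pairs called in all 5 comparisons, and listed splicing regulators. The pairs, lists and the form of the tests were chosen with earlier results of these data known. Alternatives were DESeq2 1.42.0, limma 3.58.1, an estimated dispersion, either side's junctions alone, 1 model of all mice, other thresholds and leaving out each mouse. The newer edgeR form, the balanced pairs and the interaction without single mice were added after seeing the data.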

Additional observations from a re-analysis of the deposited data

Results flagged for a closer look

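In 9 of 120 group values of the 30 named pairs, 1 mouse stood apart from the other 4 of its group by Dixon's criterion. Chance marks about 1 in 20 groups. *Tpm2*, read at a mean of 27.45 reads per mouse, had 3 of the 9: a share of 0.559 in WT vehicle mouse 3 (others 0.926 to 1), 0 in WT sudemycin mouse 9 (others 0.766 to 1) and 0.517 in S34F sudemycin mouse 9 (the others all 1). In *Jak1*, WT sudemycin mouse 9 was at 0 (others 0.181 to 0.217), and in *Mapk9*, S34F sudemycin mouse 6 was at 0.00239 (others 0.0526 to 0.0731). *Ogdh* was at 0.606 in S34F sudemycin mouse 12 (others 0.492 to 0.512). *Gm885* was at 0.0293 in S34F vehicle mouse 5 (others 0.0485 to 0.0525), *Slc25a3* in 1 of its pairs at 0.0227 in WT vehicle mouse 5 (others 0.0133 to 0.0145), and *Actn4* at 0.972 in S34F sudemycin mouse 12 (others 0.998 to 1).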

How the results depend on the processing

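Counts of called pairs are given in the order S34F against WT under vehicle, sudemycin in WT, sudemycin in S34F, S34F against WT under sudemycin, and S34F sudemycin against WT vehicle, with 13, 7, 7, 18 and 21 as reported. An estimated dispersion gave 1, 0, 0, 1 and 4, limma 5, 2, 1, 11 and 16, DESeq2 12, 3, 5, 16 and 23, entering junctions alone 6, 6, 6, 8 and 15, leaving junctions alone 8, 3, 4, 9 and 13, FDR under 5% with a change over 10 points 4, 2, 2, 7 and 11, and balanced pairs 8, 6, 7, 11 and 12. Read minimums of 1 or 20, 1 model of all mice and the newer edgeR form stayed within 1.5 times of each count. Leaving out 1 mouse gave 9 to 14, 4 to 8, 5 to 11, 14 to 20 and 18 to 25 pairs, and 0 for the interaction. From leaving junctions alone *Gm885* turned from a fall to 0.0105 and *Mthfsd* in its rarer form from a rise to -0.0498 in S34F sudemycin against WT vehicle; the cause was not tested. Of the 41 called changes of named pairs, 30 kept direction and call by DESeq2, 20 by limma, 22 from entering junctions alone, 22 from leaving junctions alone (17 lost, 2 reversed) and 4 with an estimated dispersion. Regulators called were 16, 0, 3, 12 and 18; DESeq2 gave 7 in S34F mice with sudemycin, and 1 model of all mice gave 0 there and 1 in WT mice. Leaving out 1 mouse gave 13 to 18, 0 to 0, 1 to 3, 9 to 13 and 13 to 18 regulators. Low read numbers limit the shares of pairs such as *Tpm2*.

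Same-numbered mice did not deviate together: correlations of their deviations lay between -0.0387 and 0.0662 over 2758 events. No pairing by number was thus visible in the shares. The labels do not say what the number means, and the correlations cannot show whether same-numbered mice were handled together. With the mouse number as a replicate block, 6 pairs were called between genotypes under vehicle and 14 under sudemycin, and 11 and 7 regulators. These fits held only mice whose number occurs in both groups, 1, 3 and 5 under vehicle and 6, 9, 10 and 12 under sudemycin. The lower counts thus also reflect fewer mice.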
